A study of Homo sapiens with 6 samples.

Results

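The transcripts of the NF-kB transcription factors and of their feedback inhibitors were followed in MOLM-14 cells, an established human acute myeloid leukaemia line with an MLL-AF9 rearrangement. The 10 genes were the subunits NFKB1, NFKB2, RELA, RELB and REL and the inhibitory or early-response genes NFKBIA, NFKBIE, NFKBIZ, TNFAIP3 and IER3. They were measured by 20 probe sets that the platform annotation assigns to 1 of these genes alone, out of 54613 probe sets tested and 19775 named genes. The 3 samples of the treated group were kept for 24 h in cortistatin A (CA, 10 nM), a steroidal alkaloid first found in a marine sponge that blocks CDK8 and its paralog CDK19, kinases that act within Mediator. The 3 control samples were kept for 24 h in the vehicle, DMSO. All were wells of 1 cell line plated in triplicate, each read on 1 Affymetrix U133 Plus array, so that p-values measure the spread between these wells, which may be technical. The labels name 2 RNA isolation methods without saying which sample had which. The comparison asks which transcripts change when the Mediator kinases are inhibited.

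NF-kB dimers are held inactive in the cytoplasm by IkB proteins. Signals such as TNF or Toll-like receptor ligands activate the IkB kinase, IkB is degraded, and the dimers enter the nucleus and bind kB sites in DNA. Among the genes they switch on are those of their own inhibitors, above all NFKBIA and TNFAIP3, so that transcripts of these inhibitors are widely used as a readout of the pathway, also in monocytic cells. Transcripts of the subunits report on the supply of the factors, whose activity is set largely by protein degradation and location. Some subunit genes, such as RELB, are themselves known targets of NF-kB.

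Of the 5 feedback genes 4 were called higher after CA on at least 1 probe set, and no subunit was called in either direction. Of the 8 probe sets of the 5 inhibitor genes, 5 were called higher and 0 lower by limma at an adjusted p under 0.05 over all probe sets tested, against a background of 3.0% called higher, 2.01% called lower and 5.01% called in all. The calls fell on TNFAIP3 (both probe sets), IER3, NFKBIA and NFKBIZ, so on 4 of the 5 genes of this group. The group is called the inhibitor genes for short, although IER3 is an early-response gene and NFKBIZ serves mainly as a cofactor, and NFKBIA, NFKBIE and TNFAIP3 are its inhibitors in the strict sense. Of the 12 probe sets of the 5 subunits, 0 were called higher and 0 lower, and at an unadjusted p under 0.05 there was 1 in each direction. The median log2 change was 0.48 over the inhibitor probe sets and -0.03 over the subunit probe sets, beside -0.01 over all probe sets. These medians describe the lists, and their difference was not tested. The genes were chosen with earlier results of these data known, so the background shares beside their counts are no test of them.

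**Figure D1:**
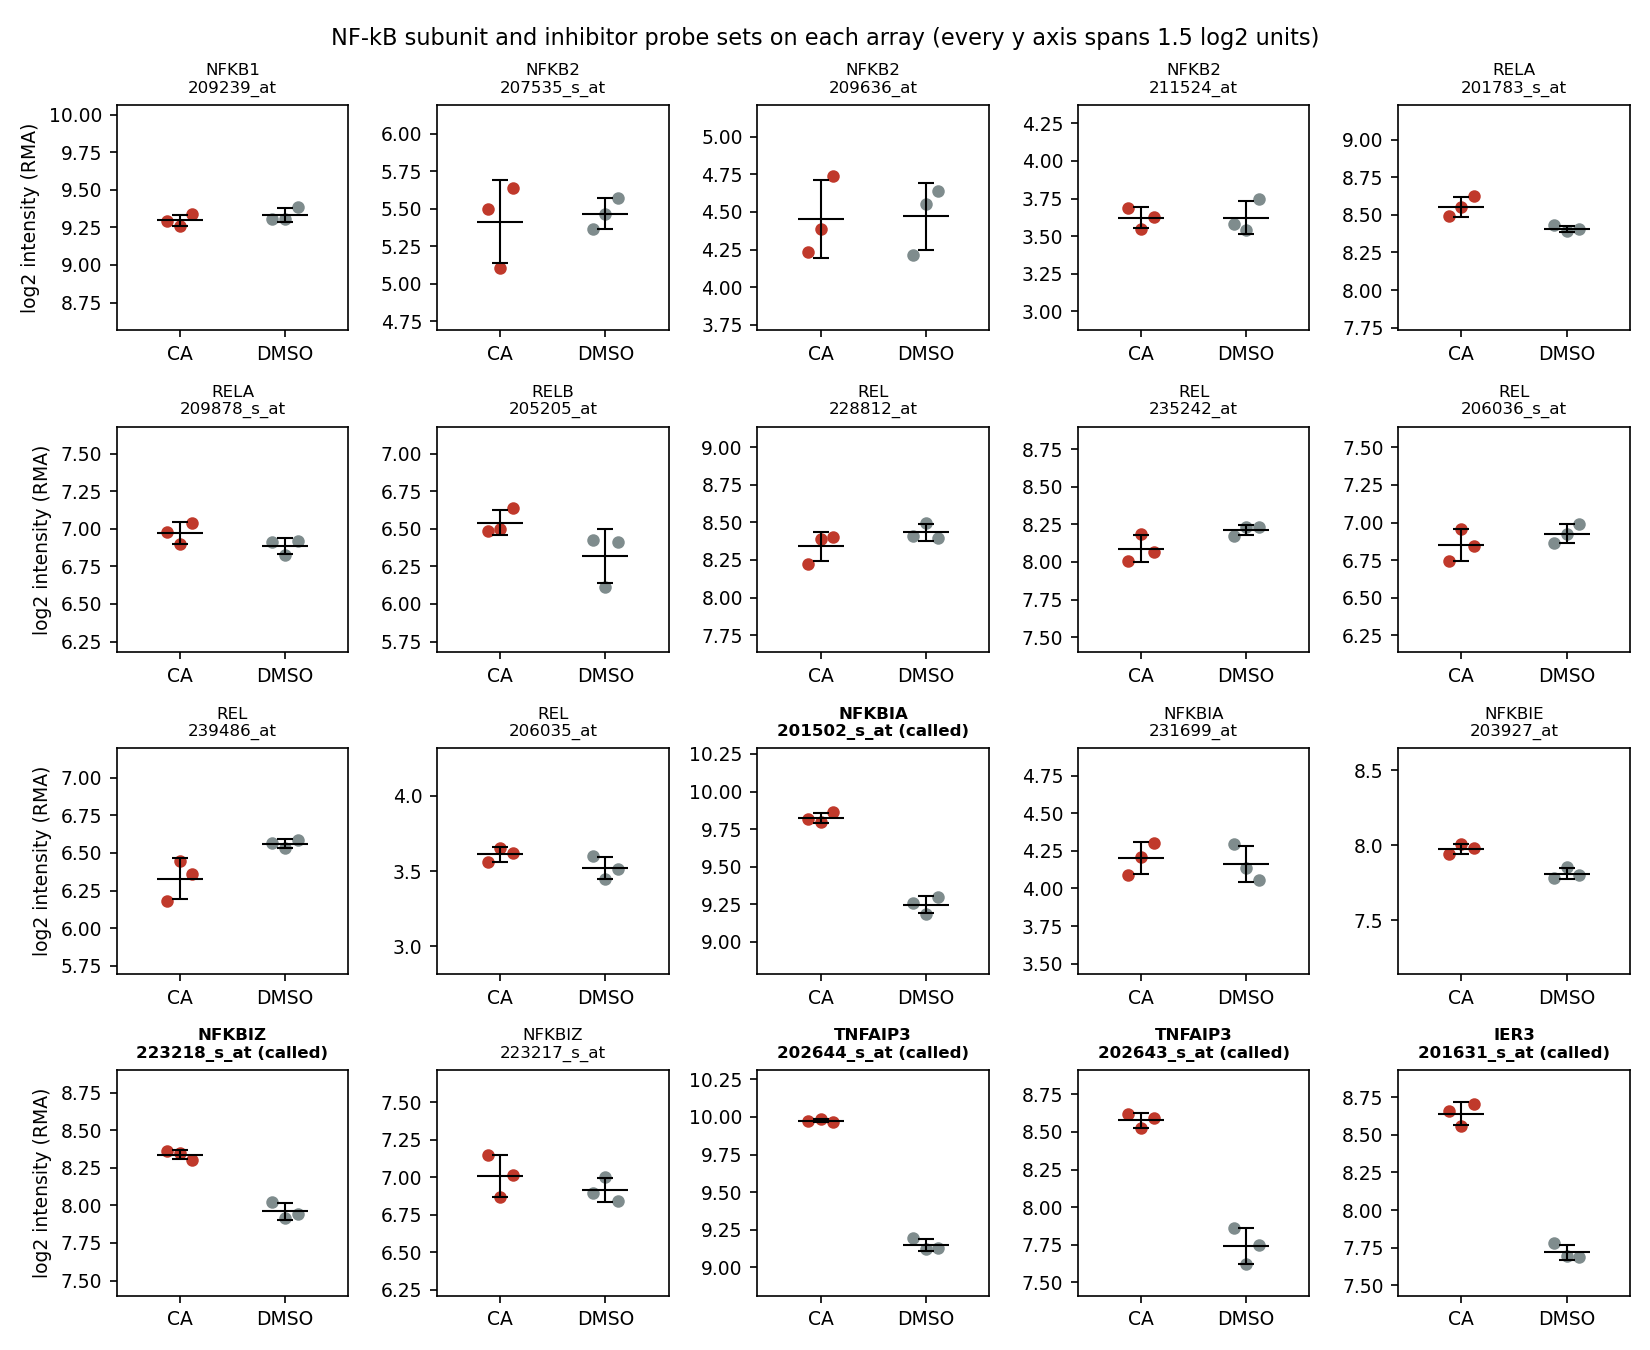
log2 intensity (y axis, each spanning 1.5 log2 units) of the 20 probe sets on the 3 CA arrays (red) and the 3 DMSO arrays (grey), with the mean and SD of each group in black. The CA points of the 5 called probe sets, titled in bold, lie clear above the DMSO points, while those of NFKB1 and NFKB2 mix with them.

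Depth does not apply to arrays, and their number limits the precision. Array medians lay between 5.59 and 5.62 on the log2 scale, and arrays of a group correlated at r = 0.998 over probe sets. Over the array 1639 probe sets were called higher and 1097 lower, or 2019 and 754 where the reference genes set the scale. Of 10 listed markers of myeloid leukaemia cells, 7 had a probe set assigned to that gene alone and were analysed. Of these, 6 lay above the median probe set of the arrays, among them LYZ (13.33 in CA, 13.38 in DMSO) and FLT3 (11.72 in CA, 11.69 in DMSO). In this list PTPRC was called lower (9.98 in CA, 10.58 in DMSO) and MEIS1 higher (9.95 in CA, 9.70 in DMSO). Of 18 measured markers of T, B, erythroid, megakaryocytic, epithelial and fibroblast cells, 0 reached the arrays' upper quartile and 0 were called (2 at an unadjusted p under 0.05). RNA integrity, read as the 3' minus the 5' control signal of GAPDH on the log2 scale, was 0.48 ± 0.05 in CA and 0.38 ± 0.02 in DMSO (SD, n = 3 each, 2-sided exact permutation p = 0.1, the smallest that 3 against 3 can give). That of ACTB was 2.38 ± 0.07 in CA and 2.27 ± 0.13 in DMSO (exact permutation p = 0.3), and the part of either in the results was not tested.

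TNFAIP3 encodes a ubiquitin-editing enzyme that shuts off signalling from the TNF and Toll-like receptors to NF-kB. Its gene lies on chromosome 6 (137866349 to 137883312, GRCh38.p14). Probe set 202644_s_at read 9.97, 9.99 and 9.97 in the CA samples, against 9.19, 9.12 and 9.13 in the DMSO samples (log2). The CA values were almost identical to each other and stood far above all DMSO values. TNFAIP3 was 1.77-fold higher in CA (log2 change 0.83, SE 0.05, limma adjusted p = 2.06e-04). The other probe set, 202643_s_at, gave 8.62, 8.52 and 8.59 in CA and 7.86, 7.62 and 7.75 in DMSO. It rose by nearly the same amount, 1.78-fold (log2 change 0.84, SE 0.07, limma adjusted p = 0.00125), so that both readings of this transcript moved together, and 190 of the 54613 probe sets had a larger rise.

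IER3 encodes a short-lived stress and immediate early protein that affects cell survival, and its gene is a known NF-kB target on chromosome 6 (30743199 to 30744547). Its only probe set, 201631_s_at, read 8.66, 8.56 and 8.71 in CA, against 7.78, 7.69 and 7.69 in DMSO. The lowest CA value lay well above the highest DMSO value. IER3 had the largest change of the 10 genes, 1.89-fold higher in CA (log2 change 0.92, SE 0.06, limma adjusted p = 3.54e-04), and 144 other probe sets rose more.

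NFKBIA encodes IkB alpha, the inhibitor that NF-kB resynthesises first and that carries it back to the cytoplasm. The gene lies on chromosome 14 (35401513 to 35404749). Probe set 201502_s_at read 9.81, 9.80 and 9.86 in CA, against 9.26, 9.18 and 9.30 in DMSO, with no overlap between the groups. This was a 1.49-fold rise (log2 change 0.58, SE 0.05, limma adjusted p = 0.00165). The other NFKBIA probe set, 231699_at, was dim in both groups, at 4.20 ± 0.11 in CA and 4.16 ± 0.12 in DMSO (SD, n = 3 each), next to a lower quartile of the arrays of 4.12. Its change of 0.04 (95% confidence interval -0.16 to 0.23, limma adjusted p = 0.864) was not called. With both probe sets averaged the change of NFKBIA was 0.31 (limma adjusted p = 0.0127).

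NFKBIZ, on chromosome 3 (101827990 to 101861022), encodes IkB zeta, a nuclear protein of the IkB family. It is induced by NF-kB and, unlike IkB alpha, serves mainly as a cofactor that helps NF-kB switch on further genes. Probe set 223218_s_at read 8.36, 8.35 and 8.30 in CA, against 8.02, 7.92 and 7.94 in DMSO, and rose 1.30-fold (log2 change 0.38, SE 0.05, limma adjusted p = 0.00864). All 3 CA values were above all 3 DMSO values. Probe set 223217_s_at read 7.15, 6.87 and 7.02 in CA and 6.90, 7.0 and 6.84 in DMSO. These overlapped, and the change of 0.10 (95% confidence interval -0.10 to 0.29) was not called (limma adjusted p = 0.607). The difference between the 2 probe sets was not tested, and with both averaged the change was 0.24 (limma adjusted p = 0.0286).

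NFKBIE encodes IkB epsilon, a slower feedback inhibitor that binds RELA and REL dimers, on chromosome 6 (44258166 to 44265551). Its probe set 203927_at read 7.94, 8.01 and 7.98 in CA, against 7.78, 7.85 and 7.80 in DMSO. The groups did not overlap, but the difference was small, 1.12-fold (log2 change 0.17, SE 0.05), and it was not called (limma adjusted p = 0.114). With a mean log2 of at least 5 or 6, with 1 value a gene, or with an intensity trend and robust moderation, the same change passed the threshold (limma adjusted p of 0.0198 to 0.0480). Of all 8 inhibitor probe sets, 6 had groups that did not overlap, with CA higher, where 12.1% of all probe sets did so.

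All 5 calls came from probe sets whose names end in _s_at, which marks probes that can match several transcripts, in most cases of the same gene. TNFAIP3, IER3 and NFKBIZ were measured by this kind only. Among the 10 member probe sets of the kind, 5 were called higher, and among the 10 others 0 were called by limma in either direction, with 2 at an unadjusted p under 0.05 (NFKBIE and 1 of REL). Over the array 4.05% of probe sets ending in _s_at or _x_at and 2.58% of the others were called higher. Whether the kind of probe set bears on these rises was not tested.

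**Figure D2:**
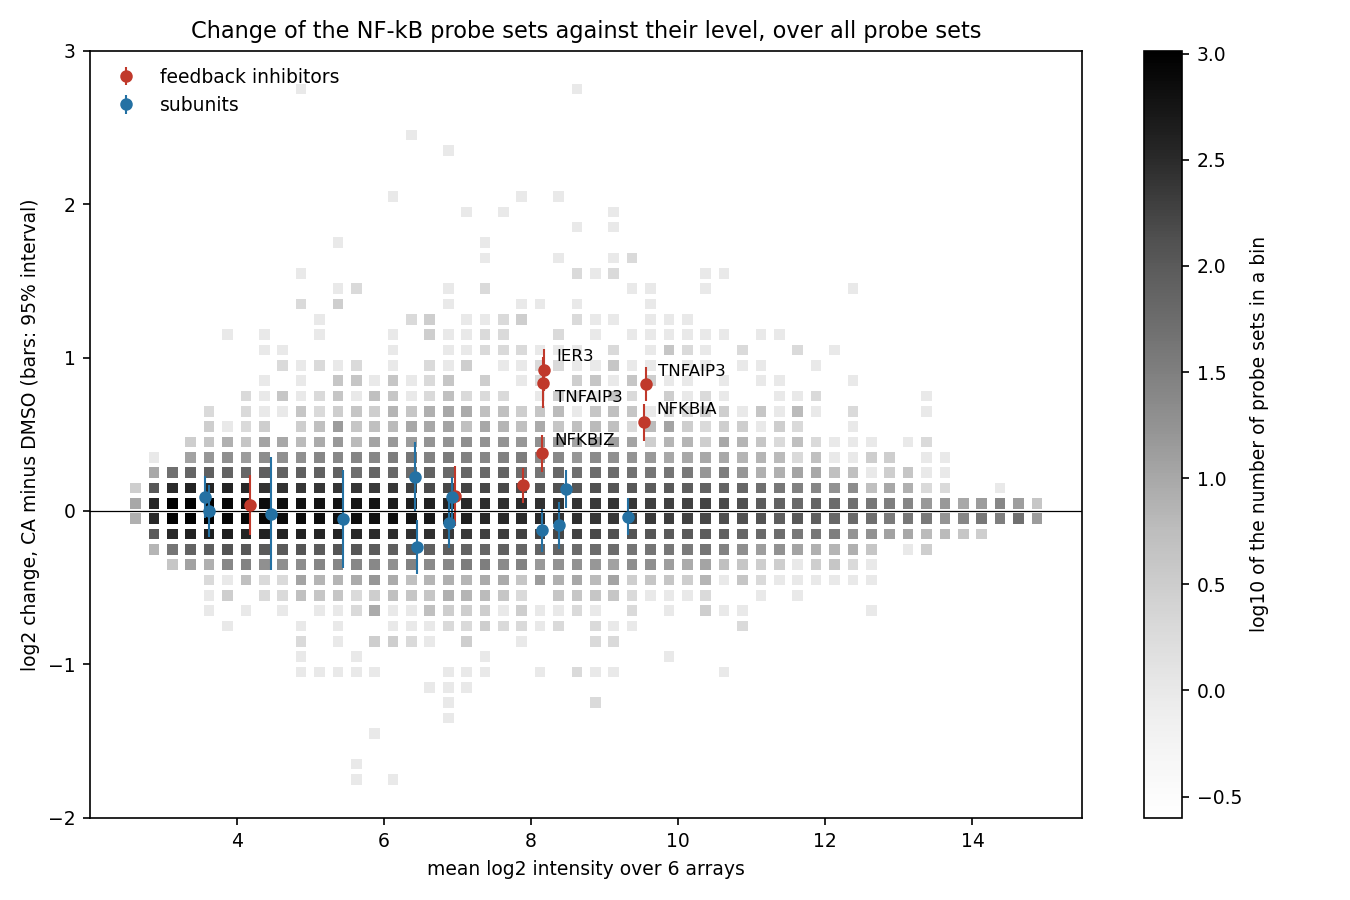
log2 change, CA minus DMSO, with its 95% confidence interval (y axis) against the mean log2 intensity over 6 arrays (x axis) for the inhibitor probe sets (red) and the subunit probe sets (blue), over grey squares whose shade is the number of all probe sets in a bin. The named inhibitor points at 0.38 to 0.92 lie among the paler squares above the dark band that holds most probe sets, and the subunit points, between -0.23 and 0.22, lie in or near that band.

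The 3 genes that rose and have a promoter entry have matches to the kB consensus before their starts. The consensus searched was GGG, then A or G, any base, A or T, C or T, C or T, and then CC. The sequences below are the 250 bases before an annotated transcript start, 5' to 3' on the gene's strand, from RefSeq on GRCh38.p14. Capitals in them mark matches to the kB consensus on either strand. The sequences are shown to place the match in the genes that moved. Promoter sequences were matched by symbol for 7 of the 10 genes, at 12 starts in all. NFKBIE, IER3 and RELB had no entry and were not searched.
NFKBIA (chr14:35404750-35404999, minus strand): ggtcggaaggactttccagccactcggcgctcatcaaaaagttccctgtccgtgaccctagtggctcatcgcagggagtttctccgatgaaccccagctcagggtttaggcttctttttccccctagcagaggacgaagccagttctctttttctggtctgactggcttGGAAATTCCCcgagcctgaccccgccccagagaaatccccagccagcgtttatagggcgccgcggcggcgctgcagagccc
TNFAIP3 (chr6:137867009-137867258, plus strand): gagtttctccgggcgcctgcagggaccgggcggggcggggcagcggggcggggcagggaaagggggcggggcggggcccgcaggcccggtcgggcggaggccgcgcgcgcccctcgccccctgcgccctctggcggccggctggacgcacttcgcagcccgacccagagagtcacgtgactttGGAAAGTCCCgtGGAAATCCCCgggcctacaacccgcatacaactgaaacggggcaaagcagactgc
NFKBIZ (chr3:101827740-101827989, plus strand): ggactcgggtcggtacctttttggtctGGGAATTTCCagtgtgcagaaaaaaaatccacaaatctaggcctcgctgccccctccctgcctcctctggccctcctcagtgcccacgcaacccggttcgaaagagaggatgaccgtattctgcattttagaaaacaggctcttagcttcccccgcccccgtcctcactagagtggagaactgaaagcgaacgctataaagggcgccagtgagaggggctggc

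In NFKBIA a single match, GGAAATTCCC, ran from 81 to 72 bases before the start. TNFAIP3 had a pair of matches close together, GGAAAGTCCC from 67 to 58 and GGAAATCCCC from 55 to 46 bases before its start. Those of both genes read as the consensus on the opposite strand. NFKBIZ had GGGAATTTCC from 223 to 214 bases before its first listed start, and its second start had GGGGTTTCCC from 239 to 230 bases before it.

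The subunits that were not called hold such matches too. NFKB1 and REL are shown for comparison with the genes that rose.
NFKB1 (chr4:102501109-102501358, plus strand): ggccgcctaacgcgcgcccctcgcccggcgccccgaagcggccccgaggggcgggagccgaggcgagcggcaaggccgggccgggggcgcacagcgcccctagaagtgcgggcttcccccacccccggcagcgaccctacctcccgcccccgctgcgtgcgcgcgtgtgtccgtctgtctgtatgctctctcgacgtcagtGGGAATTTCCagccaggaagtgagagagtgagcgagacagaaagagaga
REL (chr2:60881324-60881573, plus strand): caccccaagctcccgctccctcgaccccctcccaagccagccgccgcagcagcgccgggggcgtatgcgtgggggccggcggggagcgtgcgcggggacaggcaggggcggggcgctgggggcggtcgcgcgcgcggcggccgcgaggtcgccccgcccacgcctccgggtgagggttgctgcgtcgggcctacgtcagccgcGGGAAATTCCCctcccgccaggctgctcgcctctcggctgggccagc

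The match in NFKB1, GGGAATTTCC from 49 to 40 bases before the start, has the same letters as that in NFKBIZ, and read on the opposite strand it is the match in NFKBIA. In REL 2 matches overlapped by all but 1 base, from 47 to 37 bases before the start. NFKB2 held overlapping and separate matches before 2 of its 3 listed starts, and RELA held 0 before either of its 2. In all, the consensus was found before a start of 6 of the 7 genes, 3 inhibitors and 3 subunits, beside 6.28% of all 27305 genes. It was in 8 of 12 windows, several of which share a gene, against 5.21% of the 35116 windows in the table. The looser pattern GGGNNNNNCC, searched on both strands and holding every match of the consensus, was in 11 of the 12 windows and in 54.4% of all. The genes searched were chosen as NF-kB genes, some of them known targets, so the shares of all genes and windows are no test. A match is a description of the letters, and it was present both in genes that rose and in genes that were not called.

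**Figure D3:**
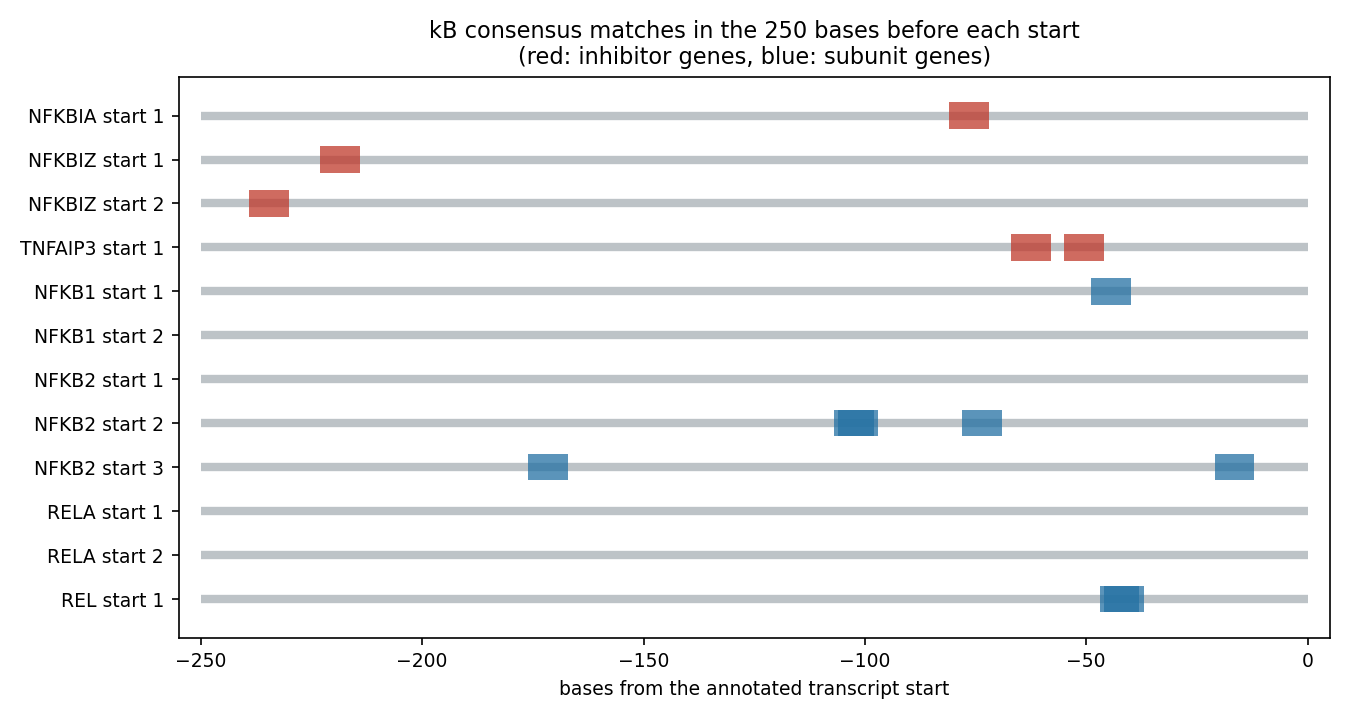
Matches to the kB consensus (boxes of 10 bases, to scale) in the 250 bases before each annotated transcript start, with distance from the start on the x axis and 1 row per start, inhibitor genes in red and subunit genes in blue. Boxes stand before every listed start of NFKBIA, NFKBIZ, TNFAIP3 and REL, before some of NFKB1 and NFKB2, and before 0 of RELA.

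NFKB1 and NFKB2 encode the precursors that are processed to the DNA-binding subunits without an activation domain. NFKB1, on chromosome 4 (102501359 to 102617302), read 9.29, 9.26 and 9.34 in CA, against 9.31, 9.30 and 9.39 in DMSO on probe set 209239_at. The values interleaved, and the change of -0.04 had a 95% confidence interval of -0.15 to 0.08 (limma adjusted p = 0.771), which holds neither a rise nor a fall of the size seen in NFKBIA. NFKB2, on chromosome 10 (102394110 to 102402529), had 3 dim probe sets, all below the median probe set of the arrays. The brightest, 207535_s_at, read 5.50, 5.11 and 5.64 in CA, against 5.36, 5.46 and 5.57 in DMSO. Its interval of -0.37 to 0.27 was wide, with the second CA sample the lowest of the 6, and the other 2 changed by -0.02 and -0.00 (adjusted p of 0.971 and 0.996). The sign of all 3 depended on the scaling or on the arrays used.

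RELA and RELB carry activation domains, RELA in the classical dimer and RELB in the dimer of the alternative pathway. RELA, on chromosome 11 (65653601 to 65663857), read 8.49, 8.55 and 8.62 in CA, against 8.43, 8.39 and 8.40 in DMSO on probe set 201783_s_at. The groups did not overlap, at a log2 change of 0.15 (95% confidence interval 0.02 to 0.27), but it was not called (limma adjusted p = 0.198). Probe set 209878_s_at stood at 6.97 ± 0.07 in CA and 6.89 ± 0.05 in DMSO (SD, n = 3 each), a difference of 0.09 with overlapping values. RELB, on chromosome 19 (45001464 to 45038192) and itself a known target of NF-kB, read 6.49, 6.50 and 6.64 in CA, against 6.43, 6.11 and 6.41 in DMSO on 205205_at. The lowest CA value was just above the highest DMSO value, and 1 low DMSO sample made up much of the difference of 0.22 (95% confidence interval -0.00 to 0.45, limma adjusted p = 0.280). Without DMSO replicate 2 it was 0.12.

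REL encodes c-Rel, the subunit most tied to blood cells, on chromosome 2 (60881574 to 60931612), and was read by 5 probe sets. Of these, 4 were lower in CA by 0.08 to 0.23 on the log2 scale and the dimmest, 206035_at, was 0.09 higher, all uncalled. The largest difference was that of 239486_at, with 6.18, 6.45 and 6.36 in CA, against 6.57, 6.53 and 6.59 in DMSO. These groups did not overlap, with CA lower, as in 13.1% of all probe sets (log2 change -0.23, 95% confidence interval -0.41 to -0.06, limma adjusted p = 0.147). Among probe sets with a mean log2 of at least 6 alone, it passed the threshold (limma adjusted p = 0.0476). The brightest, 228812_at, read 8.23, 8.39 and 8.40 in CA, against 8.41, 8.50 and 8.40 in DMSO, and overlapped.

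TNFAIP3, IER3, NFKBIA and NFKBIZ were called whichever array was removed. With each of the 6 arrays left out in turn, the 5 probe sets remained called. IER3 lay between 0.89 and 0.96, TNFAIP3 between 0.82 and 0.85 on 202644_s_at and between 0.78 and 0.89 on 202643_s_at, NFKBIA between 0.54 and 0.60 and NFKBIZ between 0.36 and 0.41 on the log2 scale. NFKBIZ came closest to the threshold, at a limma adjusted p of 0.0220 to 0.0443. By Holm adjustment over all probe sets, IER3 and TNFAIP3 202644_s_at alone kept their calls, and NFKBIA and NFKBIZ did not reach 1.5-fold. With 1 array left out, 1239 to 1327 probe sets of the array were called in place of 2736.

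**Figure D4:**
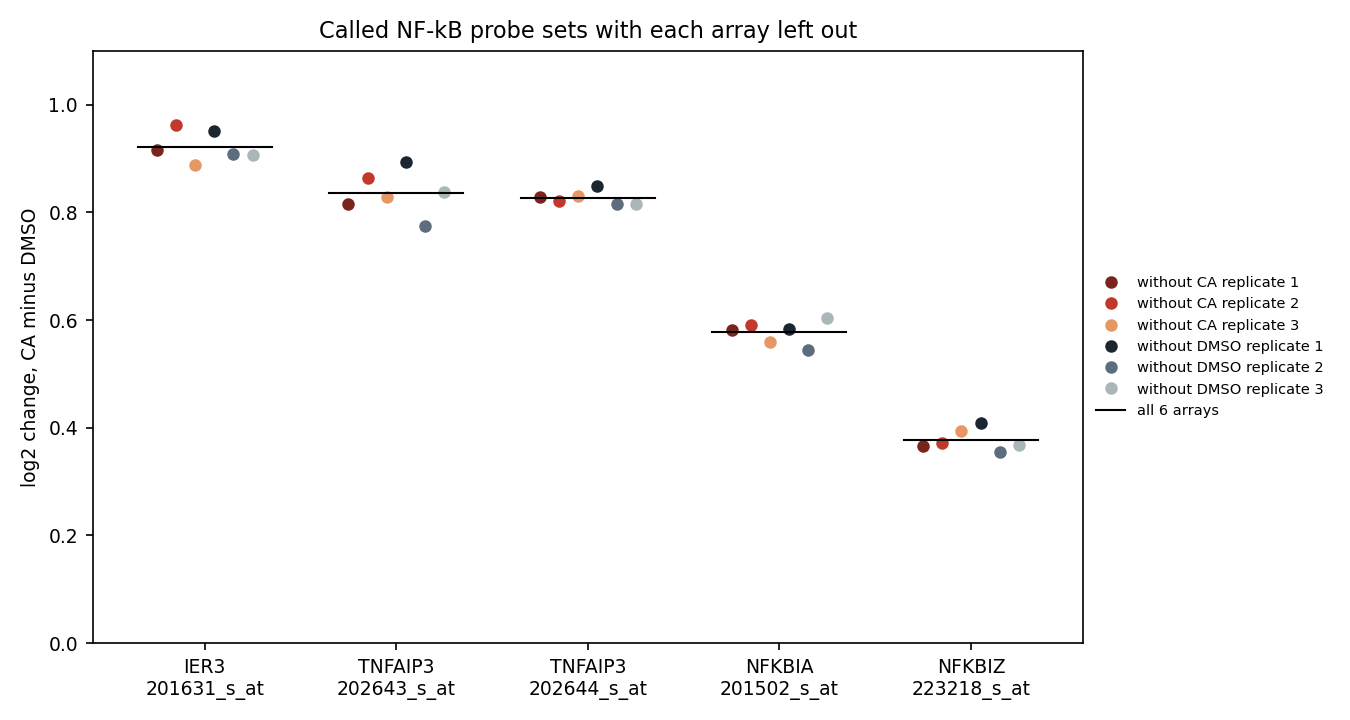
log2 change, CA minus DMSO (y axis), of the 5 called probe sets (x axis) with each array left out in turn (points) and with all 6 arrays (black lines). For each probe set the 6 points stay close to its line, from 0.36 for the lowest NFKBIZ point to 0.96 for the highest IER3 point.

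The other parts of the pathway gave few calls. Each of these genes was represented by its probe set of highest mean log2, where 4.31% of all genes were called higher and 2.55% lower. Of 11 measured genes for other IkB proteins and negative regulators, 1 was called higher and 0 lower by limma (2 at an unadjusted p under 0.05 in each direction), at a median change of 0.02. It was TNIP1, a partner of the TNFAIP3 protein that binds ubiquitin chains, at 9.30 in CA and 9.03 in DMSO (log2 change 0.27, limma adjusted p = 0.0307). Its other probe set had the opposite sign, and with any 1 array removed it was uncalled (adjusted p of 0.0566 to 0.111). NFKBIB, the third classical IkB, was at 0.10 (95% confidence interval -0.05 to 0.25) and CYLD, a deubiquitinase that brakes the pathway, at 0.09 (-0.09 to 0.26), neither called. CYLD had 7 probe sets, and 5 of them had the opposite sign to this one. A further 2 genes of this list were not analysed here.

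Of 18 measured genes of the IkB kinase complex and the steps before it, 0 were called higher and 1 lower by limma (2 and 3 at an unadjusted p under 0.05), at a median change of 0.01. It was RBCK1, a subunit of the ligase that builds linear ubiquitin chains, at -0.24 (limma adjusted p = 0.0368), called on 1 of its 3 probe sets. With any 1 array left out that probe set was not called (adjusted p of 0.0715 to 0.126). The IkB kinase genes CHUK (-0.07, 95% confidence interval -0.19 to 0.05), IKBKB (-0.13, -0.24 to -0.02) and IKBKG (0.00, -0.19 to 0.20) were not called. Without CA replicate 1, TRAF5, an adaptor of TNF family receptors, was called higher (0.56, adjusted p = 0.0221), while on all 6 arrays it was at 0.43 (limma adjusted p = 0.0772). The other of the 2 TRAF5 probe sets had the opposite sign on all 6 arrays.

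Known target genes of NF-kB changed in both directions. Of 28 measured, 6 were called higher and 2 lower, or 21.4% and 7.14%, beside 4.31% and 2.55% of all genes. The list was chosen with earlier results of these data known, so these shares are no test of it. Its median change was 0.03, and 16 of the 28 lay above the median probe set of the arrays. IL6 (4.25 in CA and 4.27 in DMSO) and PTGS2 (4.68 in CA and 4.66 in DMSO) were not called and were dim, next to a lower quartile of the arrays of 4.12. The largest rises were those of LTB and TNF, cytokines of the TNF family that act on NF-kB in turn, and of BCL2A1, a survival protein of the BCL2 family. LTB averaged 9.52 in CA and 7.48 in DMSO (log2 change 2.04, SE 0.06, limma adjusted p = 4.29e-05), and TNF 10.17 in CA and 8.49 in DMSO (1.68, SE 0.07, limma adjusted p = 8.44e-05). BCL2A1 averaged 7.50 in CA and 6.20 in DMSO (1.30, SE 0.10, limma adjusted p = 9.26e-04), and the adhesion molecule ICAM1 8.46 in CA and 7.91 in DMSO (0.55, SE 0.05, limma adjusted p = 0.00225). The chemokines CCL5 (8.69 in CA and 9.75 in DMSO, -1.06, limma adjusted p = 1.45e-04) and CCL20 (4.53 in CA and 4.92 in DMSO, -0.39, adjusted p = 0.0336) fell. LTB was called on 1 of its 2 probe sets, ICAM1 on 2 of 3 and CCL5 on 3 of 3, and CFLAR on 2 of 14, with 3 of the 14 of the opposite sign. CCL20 was dim and kept its call with 1 array left out only where that was DMSO replicate 1. IL1B (-0.30, 95% confidence interval -0.58 to -0.02) and CXCL8 (-0.30, -0.56 to -0.03), inflammatory targets typical of monocytes, were not called. CXCL8 was dim too, at 4.29 in CA and 4.59 in DMSO. With 1 array left out 5 or 6 targets were called higher and 1 or 2 lower, and CFLAR, an inhibitor of caspase-8 (0.28, limma adjusted p = 0.0312), kept its call only where that array was DMSO replicate 3. The remaining called rise, that of F3 (0.45, limma adjusted p = 0.00792), kept its call whichever array was left out (limma adjusted p of 0.0172 to 0.0393). Without probe sets ending in _s_at or _x_at, 2 of 20 measured targets were called higher and 2 lower. The called probe sets of TNF, LTB, ICAM1 and CFLAR were themselves removed, so this run could not keep their calls. TNF, with 1 probe set, was not measured in it.

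**Figure D5:**
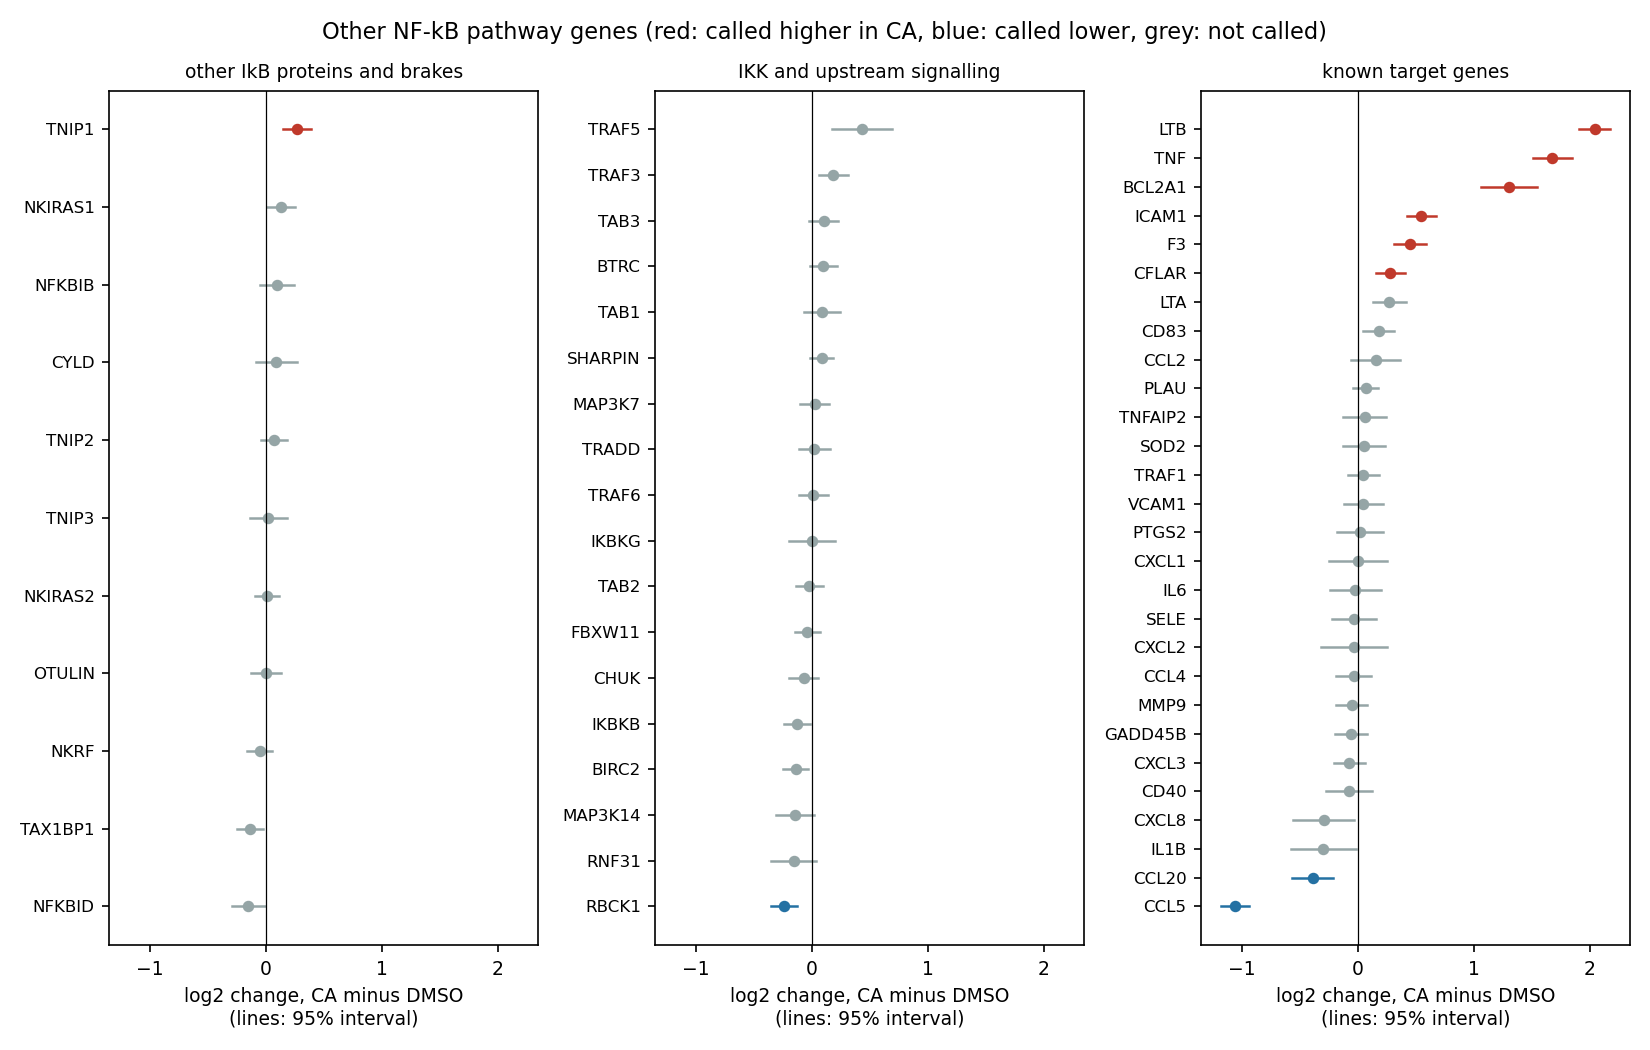
log2 change, CA minus DMSO, with 95% confidence intervals (x axis) for each measured gene of 3 lists (rows), red where called higher, blue where called lower and grey where not called. LTB, TNF and BCL2A1 stand far to the right at 1.30 to 2.04 and CCL5 to the left at -1.06, while the intervals of most genes in all 3 panels span or approach 0.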

How the data were processed

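RNA of 3 CA and 3 DMSO samples was read on 1 array each. The deposited table holds a log2 intensity for every probe set, which the authors computed with RMA (affy), as the submitters' processing notes have it. This method corrects background, quantile-normalizes and summarises probes, and it compresses large fold changes. Its version, and the set of arrays it was run on, are not given in the sources used.

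Of 54675 probe sets, 62 controls were left out. Of the others, 41091 had 1 gene symbol in the platform annotation, 1801 had several and 11721 were unnamed here. Symbols were updated by Entrez number through a GRCh38.p14 gene table, which matched 41037, and gene coordinates are from it. The 2 groups were compared in R 4.3.3 with limma 3.58.1 (lmFit, then eBayes, 2-sided, no covariates, no filter) over all 54613 probe sets. Benjamini-Hochberg adjustment covered all of them, and called means an adjusted p under 0.05. The fit was tested on simulated data. Other scalings, filters, probe set choices, moderation, thresholds, a replicate block and the removal of each array were tried. The members and lists were chosen with earlier results of these data known. All member probe sets were eligible to be named, and of other lists up to 4 called genes in each direction. IL6, PTGS2, CFLAR, F3, NFKBIB, CYLD, CHUK, IKBKB, IKBKG, TRAF5, IL1B and CXCL8 were named after their values were seen.

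Arrays with the same replicate number did not deviate together (r of -0.025 to 0.032), so no pairing was used.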

Additional observations from a re-analysis of the deposited data

How the results depend on the processing

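The 5 called probe sets of TNFAIP3, IER3, NFKBIA and NFKBIZ kept their direction under every alternative run that measured them. Of the 20 member probe sets, 2 were called by Holm adjustment and 3 at 1.5-fold or more. Once those ending in _x_at or _s_at were left out, 10 remained and 0 were called (2 at an unadjusted limma p under 0.05). All 5 called probe sets end in _s_at and were themselves removed, so this run could not keep their calls. With the replicate number as a block (replicate block), 5 of the 20 were called, and 1109 in the whole array. With any 1 array left out 5 were called, and 1239 to 1327 in the whole array. In place of 2736, the whole array gave 4503 and 5440 for probe sets averaging 5 and 6 or more on the log2 scale, 1438 with those ending in _x_at or _s_at left out, and 1753 when the probe sets of each gene were averaged. It gave 6073 with an intensity trend and robust moderation, 968 and 4399 at an adjusted p under 0.01 and 0.1, 140 by Holm and 534 at 1.5-fold or more. The uncalled NFKB2 changed sign. Probe set 211524_at was at 0.0084 with arrays centred on medians, 0.032 on the reference genes and 1.69e-04 after a second quantile normalization, and 209636_at at 0.016 on the reference genes. With 1 array left out, 207535_s_at ranged from -0.16 to 0.10, 209636_at from -0.16 to 0.094, 211524_at from -0.044 to 0.062 and NFKBIA 231699_at from -0.014 to 0.10. All 4 averaged below the median probe set of the arrays, and the cause of these differences was not tested.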
